A study of Mus musculus with 18 samples.

Results

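The intergenic distal sites bound by PAX5 and not by EBF1 were taken from the study's list of PAX5-only chromatin sites in mouse pro-B cells. A site was kept where the authors' annotation placed it between genes and its centre lay more than 1000 bp from the nearest transcription start site. The rule gave 2206 sites, which is 43.8% of the 5033 PAX5-only sites and 15.3% of the 14377 EBF1- or PAX5-bound sites in the 3 site tables. No PAX5-only intergenic site lay at or under 1000 bp, so the distance limit removed none. The sites nearest to the limit lay 1016 bp from Dnph1, 1030 bp from Lfng and 1051 bp from Tjap1. At the Dnph1 site, in tags per 10 M tags of a library, the signal was 1.95, 1.82 and 2.24 in Ebf1-KO libraries, 0.71, 1.59 and 2.61 in Pax5-KO libraries and 5.23, 1.99 and 3.88 in WT libraries. At the Lfng site it was 0.78, 1.51 and 2.24 in Ebf1-KO libraries, 2.47, 2.39 and 3.48 in Pax5-KO libraries and 7.19, 7.12 and 7.25 in WT libraries.

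The study compared 3 genotypes on the C57BL6/J background: Ebf1-KO, Pax5-KO and WT. All cells were pro-B cells from fetal liver, grown on OP9 stromal cells with FLT3 ligand, KIT ligand and the cytokine interleukin-7. Open chromatin was measured by ATAC-seq, in which a transposase cuts and tags accessible DNA, and RNA by sequencing, with 3 libraries per genotype for each assay. PAX5 binding came from published chromatin immunoprecipitation in which the authors combined 3 PAX5 data sets, so binding was not measured in the libraries used here. The labels do not say whether the libraries of 1 genotype came from separate fetuses or cultures, and the p-values then measure only the spread between these libraries.

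PAX5 is a paired-domain transcription factor that commits progenitors to the B lineage. It activates B cell genes such as Cd79a, represses genes of other lineages, and in mice is required for contraction of the immunoglobulin heavy-chain locus before distal V genes are joined. EBF1 acts upstream of and together with PAX5, and progenitors without either factor stay uncommitted. Sites far from genes often act as enhancers, and accessible chromatin is one of their marks.

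The sequences of 8 sites are printed because the results on chromatin signal turn on them. Bcar3 names a site that was high in WT cells and low in both mutants. 4933417E11Rik and Gm10637 name sites with intermediate signal in Pax5-KO, Bhlhe41 a site low in Pax5-KO and high in Ebf1-KO, and Prdm1 a site higher in Ebf1-KO than in the other genotypes. Cdh26, Map4k3 and Gpr12 name sites that gained signal in mutant cells. Each is called by the nearest gene start and is given on the plus strand of GRCm38 (mm10) from the RefSeq assembly. Capitals mark every match, on either strand, to the PAX5 core GCGTGAC, the wider PAX5 open core GCNTGAC that contains it, the EBF1 core CCCNNGGG, the ETS motif AGGAAGT and the RUNX motif TGTGGTT. A match is a run of letters and not evidence of binding.
4933417E11Rik: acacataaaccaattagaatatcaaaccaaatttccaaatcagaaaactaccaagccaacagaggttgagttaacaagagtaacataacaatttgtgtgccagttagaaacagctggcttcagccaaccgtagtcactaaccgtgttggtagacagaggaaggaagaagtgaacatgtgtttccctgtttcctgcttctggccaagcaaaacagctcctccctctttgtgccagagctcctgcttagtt
Bcar3: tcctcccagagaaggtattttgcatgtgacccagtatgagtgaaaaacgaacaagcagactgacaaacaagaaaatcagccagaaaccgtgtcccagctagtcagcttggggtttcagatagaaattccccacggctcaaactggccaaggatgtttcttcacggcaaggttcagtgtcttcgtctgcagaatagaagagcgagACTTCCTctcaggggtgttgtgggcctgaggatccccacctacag
Gm10637: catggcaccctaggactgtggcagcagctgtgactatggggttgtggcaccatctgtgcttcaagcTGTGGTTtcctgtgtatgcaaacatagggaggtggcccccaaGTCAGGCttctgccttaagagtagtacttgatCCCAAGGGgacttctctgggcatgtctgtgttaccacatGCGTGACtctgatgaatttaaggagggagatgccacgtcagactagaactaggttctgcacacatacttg
Bhlhe41: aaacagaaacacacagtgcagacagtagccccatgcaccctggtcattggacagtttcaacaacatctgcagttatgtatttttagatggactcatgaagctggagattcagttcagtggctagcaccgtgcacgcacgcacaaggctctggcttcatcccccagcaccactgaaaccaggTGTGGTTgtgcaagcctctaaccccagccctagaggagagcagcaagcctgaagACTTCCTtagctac
Prdm1: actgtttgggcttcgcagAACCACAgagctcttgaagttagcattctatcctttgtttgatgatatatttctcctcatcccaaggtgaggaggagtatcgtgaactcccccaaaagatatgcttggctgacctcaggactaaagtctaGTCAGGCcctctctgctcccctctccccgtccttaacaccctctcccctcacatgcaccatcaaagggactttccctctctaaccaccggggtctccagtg
Cdh26: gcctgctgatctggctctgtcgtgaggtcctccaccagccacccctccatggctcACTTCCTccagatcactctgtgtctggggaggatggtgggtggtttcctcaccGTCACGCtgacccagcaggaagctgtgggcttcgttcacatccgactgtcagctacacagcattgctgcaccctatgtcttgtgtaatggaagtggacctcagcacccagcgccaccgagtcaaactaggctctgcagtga
Map4k3: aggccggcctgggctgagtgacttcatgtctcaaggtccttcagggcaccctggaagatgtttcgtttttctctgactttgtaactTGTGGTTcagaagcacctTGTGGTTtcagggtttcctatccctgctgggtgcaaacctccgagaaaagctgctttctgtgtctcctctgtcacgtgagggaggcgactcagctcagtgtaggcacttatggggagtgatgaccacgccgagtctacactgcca
Gpr12: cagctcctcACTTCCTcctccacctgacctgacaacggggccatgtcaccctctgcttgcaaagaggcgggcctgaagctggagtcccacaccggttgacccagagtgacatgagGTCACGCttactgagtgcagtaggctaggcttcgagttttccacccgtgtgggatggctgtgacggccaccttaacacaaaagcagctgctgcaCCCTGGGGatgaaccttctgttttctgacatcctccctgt

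The 4933417E11Rik site lies at chr1:71956946-71957194. The Bcar3 site lies at chr3:122403941-122404189, the Gm10637 site at chr8:87137491-87137739 and the Bhlhe41 site at chr6:145845660-145845908. The Prdm1 site lies at chr10:44429413-44429661, the Cdh26 site at chr2:178506104-178506352, the Map4k3 site at chr17:80762463-80762711 and the Gpr12 site at chr5:146688092-146688340. The authors' annotation calls all of them intergenic, and the Bhlhe41 site overlaps a SINE repeat. A PAX5 core lay 6 bases from the centre of the Gpr12 site, 13 bases from that of the Cdh26 site and 58 bases from that of the Gm10637 site. The 4933417E11Rik site, with a ChIP peak score of 667, held no match to any of the 5 motifs.

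Chromatin signal is given as tags within the 249-base site per 10 M tags of the library. The 9 ATAC libraries held 15.3 to 38.6 M tags, with the lowest depth in WT replicate 1, and the RNA libraries 27.3 to 89.1 M mapped reads. Pax5 RNA, in reads per 10 M mapped reads, was 8.53, 15.02 and 15.7 in Ebf1-KO libraries, 99.1, 98.6 and 129 in Pax5-KO libraries and 1314, 1629 and 1619 in WT libraries. Ebf1 RNA was 1447, 1345 and 1605 in Ebf1-KO libraries, 1328, 1556 and 1661 in Pax5-KO libraries and 3252, 4200 and 4454 in WT libraries. Reads over Ebf1 exons therefore remained in the Ebf1-KO libraries, and no source used here gives the part that was deleted. Summed RNA of 11 genes that mark pro-B cells was 9274 to 9865 in Ebf1-KO, 11080 to 14830 in Pax5-KO and 22350 to 23440 in WT libraries. Against WT, 7 of the 11 were lower and 2 higher in Ebf1-KO, and 9 lower and 1 higher in Pax5-KO. A mean under 10 was found for 6 of them in Ebf1-KO, 2 in Pax5-KO and none in WT. Ptprc RNA, a large part of the Ebf1-KO sum, was 5416, 5262 and 5496 in Ebf1-KO libraries and 1281, 1468 and 1613 in WT libraries. Igll1 RNA was 7.7, 8.794 and 10.69 in Ebf1-KO libraries and 7139, 7860 and 7681 in WT libraries. Xist RNA was 41030 to 47860 in Ebf1-KO libraries, and Ddx3y RNA 0.517 to 2.75 there, against 714 to 1081 in Pax5-KO and 611 to 745 in WT libraries. Sex and the Ebf1-KO genotype therefore cannot be told apart, and 18 of the sites lie on the X chromosome. Summed RNA of 12 stromal genes was 918 to 998 in Ebf1-KO, 105 to 268 in Pax5-KO and 156 to 336 in WT libraries, and its part in the results was not tested.

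With library totals, signal at the sites was higher in WT cells than in either mutant. The median site had a mean signal of 2.17 in Ebf1-KO libraries, 2.08 in Pax5-KO libraries and 7.46 in WT cells. An even spread of tags over the genome gives 0.941, so these medians were 2.30, 2.21 and 7.93 times the even spread. Signal at or under 2 times the even spread was found at 981 sites (44.5%) in Ebf1-KO libraries, 1013 (45.9%) in Pax5-KO libraries and 228 (10.3%) in WT cells. A mean of at least 10 was reached at 399 sites (18.1%) in Ebf1-KO libraries, 239 (10.8%) in Pax5-KO libraries and 889 (40.3%) in WT cells. Library medians were 2.34, 2.12 and 2.24 in Ebf1-KO libraries, 2.12, 2.12 and 2.17 in Pax5-KO libraries and 8.49, 6.27 and 7.51 in WT, so every WT library lay above every mutant library. Fewer open cells and less signal per cell cannot be told apart in such bulk samples.

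**Figure D1:**
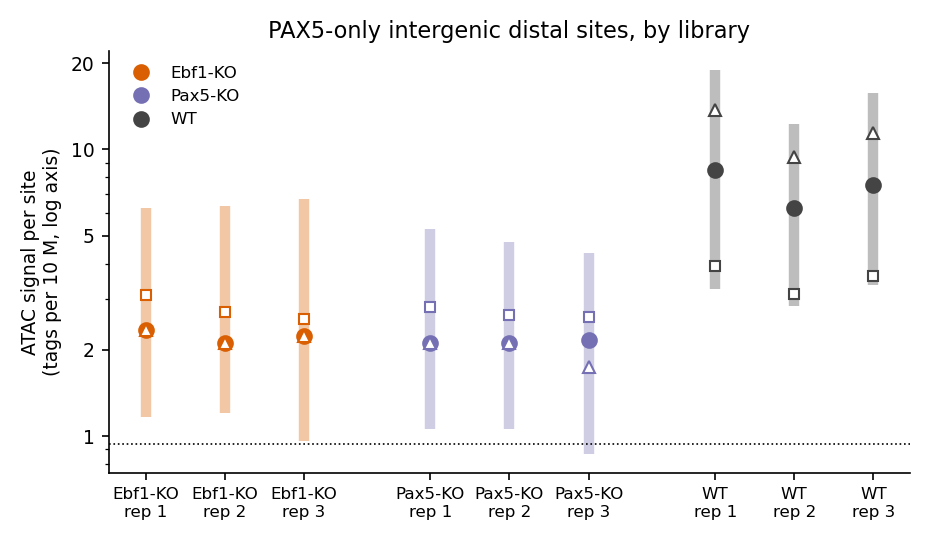
ATAC signal at the 2206 sites in each library, in tags per 10 M on a log axis, with the median as a filled circle and the quartiles as a bar. Open triangles are medians over sites called lower in Pax5-KO (2.34, 2.12 and 2.24 in Ebf1-KO libraries, 2.12, 2.12 and 1.74 in Pax5-KO libraries, 13.7, 9.4 and 11.4 in WT), open squares medians over sites not called, and the dotted line is the even spread of 0.941.

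With library totals, signal at most of these sites was lower in Pax5-KO than in WT cells. Of the 2083 sites with at least 10 tags per 10 M summed over the 9 libraries, 1346 (64.6%) were lower and 42 higher in Pax5-KO than in WT by limma at an adjusted p under 0.05. Over all 13869 tested sites of the 3 tables, 53.1% were lower and 2.14% higher. The other 123 sites were too low to test, and the 1346 are 61.0% of all 2206 sites. The median log2 fold change, on signal plus 1, was -1.17 at these sites and -0.77 over all tested sites, with the 10th and 90th percentiles over the 2083 sites at -2.76 and 0.03. The 3 Pax5-KO values did not overlap the 3 WT values at 1436 sites (68.9%), against 58.7% of all tested sites.

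These values rest on library totals, and scaling moved them. TMM scaling, which equalises the bulk of the sites, moved the median of all tested sites to 0.03 and that of the intergenic PAX5-only sites to -0.42. Under it, 747 sites (35.9%) were lower and 200 (9.6%) higher in Pax5-KO, against 21.8% lower and 14.7% higher among all tested sites. Of PAX5-only sites in introns 64.5% were lower with library totals, of PAX5-only sites within 1000 bp of a start 53.9%, of intergenic sites shared with EBF1 79.4%, and of EBF1-only intergenic sites 42.3%. The share of a library's tags that fell in the 2206 sites was 0.119% to 0.143% in Ebf1-KO, 0.0820% to 0.103% in Pax5-KO and 0.197% to 0.306% in WT. The part of this difference in library quality or scaling was not tested.

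**Figure D2:**
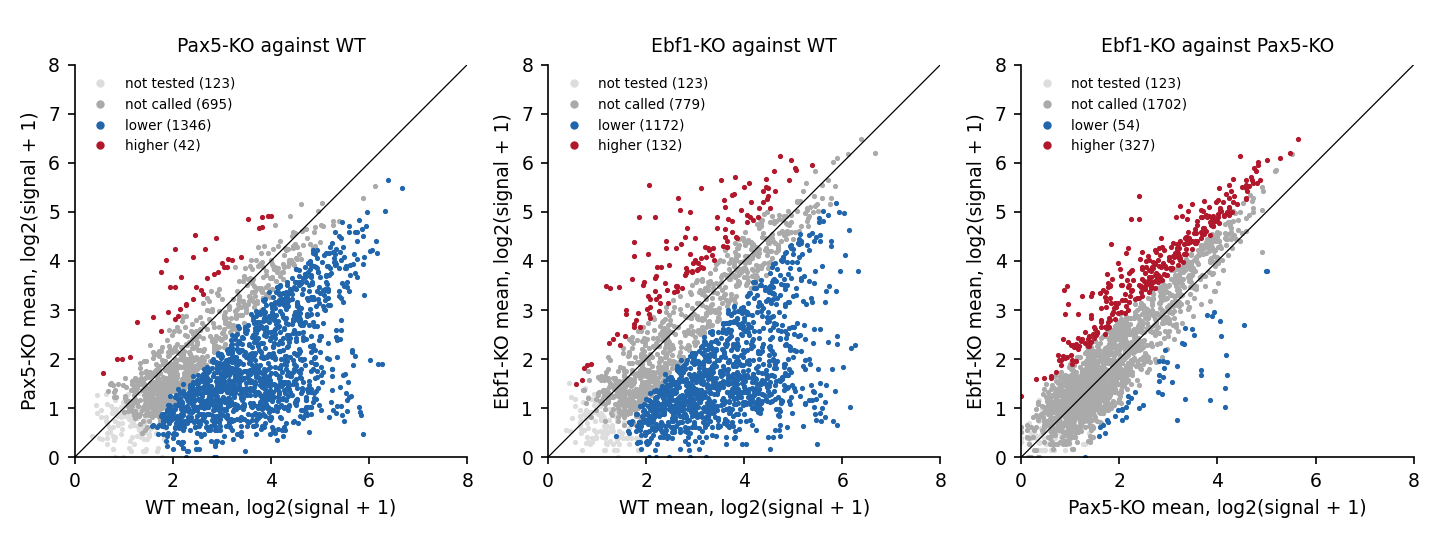
Mean signal of each site on a log2(mean + 1) scale in the 3 comparisons, with the mutant (or Ebf1-KO, in the third panel) on the vertical axis and WT (or Pax5-KO) on the horizontal axis, coloured by call. In Pax5-KO against WT 42 sites were higher, 1346 lower and 695 not called, in Ebf1-KO against WT 132, 1172 and 779, and in Ebf1-KO against Pax5-KO 327, 54 and 1702.

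At the sites called lower in Pax5-KO the median mean signal was 1.94 in Pax5-KO and 11.8 in WT. Among sites with a mean of at least 10 in the higher group and no overlap, the largest fall was at the site nearest 1600027J07Rik, with 0.78, 0 and 0.96 in Ebf1-KO libraries, 0, 0.27 and 0.87 in Pax5-KO libraries and 73.2, 34.5 and 66.3 in WT libraries. It was near zero in all 6 mutant libraries and high in all 3 WT libraries, with a log2 fold change of -5.40 ± 0.35 (SE), adjusted p = 1.21e-22 (limma) in Pax5-KO. The 4933406D12Rik site had 1.56, 1.21 and 1.92 in Ebf1-KO libraries, 1.06, 0.53 and 0.87 in Pax5-KO libraries and 64.7, 43.02 and 61.4 in WT libraries and changed by -4.97 in Pax5-KO. The site 67106 bp upstream of Pfn2, which encodes the actin-binding protein profilin 2, had 0.39, 0.3 and 1.28 in Ebf1-KO libraries, 0.35, 1.06 and 1.3 in Pax5-KO libraries and 70.6, 40.7 and 54.1 in WT libraries. It lies in an LTR element, fell by 4.88 on the log2 scale, and Pfn2 RNA was 7.43, 9.89 and 6.38 in Ebf1-KO libraries, 25.1, 31.7 and 19.1 in Pax5-KO libraries and 75.99, 109.5 and 124 in WT libraries. The Gm38403, C630028M04Rik and A930001A20Rik sites completed the 6 largest such falls, with log2 fold changes of -4.87, -4.75 and -4.73. The choice of these 6 sites required Pax5-KO and WT libraries not to overlap, and Ebf1-KO and WT libraries did not overlap there either.

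The 42 sites that were higher in Pax5-KO had a median mean signal of 12.1 in Pax5-KO and 4.40 in WT. The largest rise was at the Cdh26 site, 75713 bp from that cadherin gene, with 40.5, 42.96 and 53.8 in Ebf1-KO libraries, 23.3, 18.02 and 12.2 in Pax5-KO libraries and 4.57, 2.28 and 2.59 in WT libraries. Signal was high in all 6 mutant libraries and low in all 3 WT libraries, with a log2 fold change of 2.18 ± 0.27 (SE), adjusted p = 1.08e-10 (limma) in Pax5-KO and 3.52 in Ebf1-KO. No read was listed over Cdh26 exons in any RNA library. The Map4k3 site, near a gene for a stress-signalling kinase, had 26.9, 26.3 and 33.3 in Ebf1-KO libraries, 20.1, 14.6 and 10.9 in Pax5-KO libraries and 1.96, 2.28 and 3.63 in WT libraries, a log2 fold change of 2.15 in Pax5-KO. Map4k3 RNA was 1.38, 1.47 and 4.48 in Ebf1-KO libraries, 50.4, 61.5 and 51.6 in Pax5-KO libraries and 2.804, 6.34 and 4.92 in WT libraries, and it rose in Pax5-KO (log2 fold change 3.33). The Gpr12 site, near an orphan G protein-coupled receptor gene, had 2.73, 7.56 and 6.08 in Ebf1-KO libraries, 26.5, 22.8 and 17.4 in Pax5-KO libraries and 2.61, 4.84 and 5.96 in WT libraries. Only the Pax5-KO libraries were high there: the log2 fold change was 2.12, adjusted p = 6.04e-09, in Pax5-KO and 0.21, adjusted p = 0.581, in Ebf1-KO (limma). Sites near Rhou and the kinase gene Sik1 rose by 2.03 and 1.66 in Pax5-KO.

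**Figure D3:**
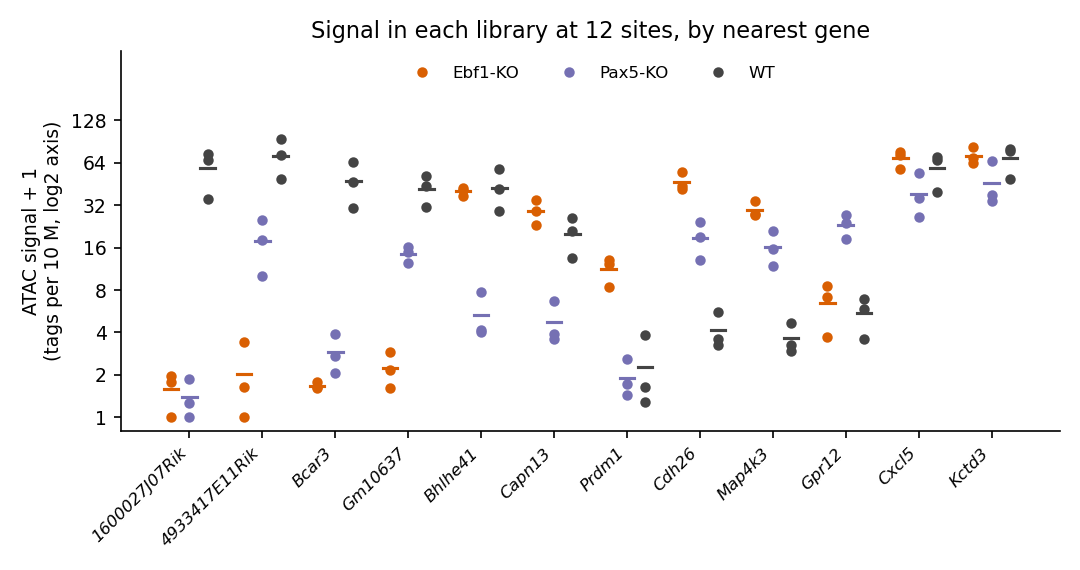
ATAC signal plus 1 at 12 named sites on a log2 axis, with 1 point per library, bars at the mean of 3 libraries, and the genotypes in the order Ebf1-KO, Pax5-KO and WT. The 1600027J07Rik, 4933417E11Rik, Bcar3 and Gm10637 sites were high in WT, the Bhlhe41 and Capn13 sites low in Pax5-KO, the Prdm1 site high in Ebf1-KO, and the Kctd3 and Cxcl5 sites high in all 9 libraries.

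With library totals, signal was also lower in Ebf1-KO than in WT cells at most of these sites, where EBF1 was not listed as bound. In Ebf1-KO 1172 of 2083 sites (56.3%) were lower and 132 higher than in WT (limma), against 52.6% lower and 3.4% higher among all tested sites. The median log2 fold change was -0.95 at these sites and -0.82 over all tested sites. With TMM scaling 716 sites (34.4%) were lower and 417 (20.02%) higher, against 30.6% and 21.3% of all tested sites, and the median was -0.23. With quantile normalization the median turned positive, at 0.11, with 507 sites lower and 543 higher. Ebf1-KO and WT values did not overlap at 1381 sites (66.3%), against 60.5% of all tested sites. Pax5 RNA was itself low in Ebf1-KO cells, so loss of EBF1 and loss of PAX5 cannot be told apart in that genotype.

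The largest fall in Ebf1-KO was at the 4933417E11Rik site, with 0, 2.42 and 0.64 in Ebf1-KO libraries, 23.99, 17.2 and 9.12 in Pax5-KO libraries and 92.8, 47.9 and 71.2 in WT libraries. The 3 groups did not overlap, and the log2 fold change was -5.28 ± 0.31 (SE), adjusted p = 9.79e-26, in Ebf1-KO and -2.06, adjusted p = 2.08e-08, in Pax5-KO (limma). The Ufm1 site, in a LINE repeat 111527 bp from the gene of that ubiquitin-like modifier, had 1.17, 0.61 and 0.32 in Ebf1-KO libraries, 10.6, 6.1 and 7.38 in Pax5-KO libraries and 50.3, 36.2 and 42.7 in WT libraries. It changed by -4.71 in Ebf1-KO and by -2.31 in Pax5-KO. At the 132 sites that were higher in Ebf1-KO the median mean signal was 16.4 in Ebf1-KO and 6.28 in WT. After the Cdh26 and Map4k3 sites, the largest rises were at the Enpp5 site (2.72), the Rhou site (2.66) and an unnamed site on chromosome 2 (2.64). Rhou RNA was 139, 85.8 and 95.9 in Ebf1-KO libraries, 0, 2.22 and 1.57 in Pax5-KO libraries and 0.28, 0 and 0.159 in WT libraries, high in Ebf1-KO only.

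Where the mutants differed, signal was more often higher in Ebf1-KO. Against Pax5-KO, 327 sites (15.7%) were higher and 54 (2.59%) lower in Ebf1-KO (limma), against 9.44% higher and 13.2% lower among all tested sites. Without Ebf1-KO replicate 3 the higher count was 203. Groups did not overlap at 610 sites (29.3%), against 36.8% of all tested sites. The 327 higher sites had median means of 13.7 in Ebf1-KO libraries, 5.65 in Pax5-KO libraries and 15.5 in WT, and the 54 lower sites 1.77, 6.48 and 17.8 in the same order. Among PAX5-only intronic sites 16.8% were higher and 2.74% lower, and among EBF1-only intergenic sites 3.42% were higher and 22.4% lower.

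The largest difference in favour of Ebf1-KO was at the site 19636 bp from Bhlhe41, which encodes a basic helix-loop-helix repressor. Its signal was 36.2, 40.2 and 41.3 in Ebf1-KO libraries, 6.7, 3.18 and 3.04 in Pax5-KO libraries and 56.8, 27.9 and 40.4 in WT libraries. Ebf1-KO and WT libraries overlapped and Pax5-KO libraries lay far below both, with a log2 fold change of 2.99 ± 0.27 (SE), adjusted p = 5.53e-15 (limma), between Ebf1-KO and Pax5-KO. Against WT it was -3.02 in Pax5-KO and -0.03, adjusted p = 0.931 by limma, in Ebf1-KO. Bhlhe41 RNA was 119.6, 152 and 193 in Ebf1-KO libraries, 1.99, 0.951 and 1.68 in Pax5-KO libraries and 66.5, 109.5 and 112 in WT libraries, and it too was near absent in Pax5-KO only. The Capn13 site had 22.2, 28.1 and 33.6 in Ebf1-KO libraries, 5.64, 2.92 and 2.61 in Pax5-KO libraries and 24.8, 12.5 and 19.9 in WT libraries, with a log2 fold change of 2.65 in Ebf1-KO against Pax5-KO.

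The site 29211 bp from Prdm1, the gene of the repressor BLIMP-1 that drives plasma cell differentiation, had 7.4, 11.2 and 12.2 in Ebf1-KO libraries, 0.71, 1.59 and 0.43 in Pax5-KO libraries and 0.65, 0.28 and 2.85 in WT libraries. It was high in the 3 Ebf1-KO libraries and low in the other 6 (0.28 to 2.85), and rose in Ebf1-KO by 2.46 ± 0.38 (SE), adjusted p = 4.97e-08 (limma), against WT. Prdm1 RNA was 4.68, 15.8 and 11.2 in Ebf1-KO libraries, 0.285, 0 and 0 in Pax5-KO libraries and 0, 0.704 and 0 in WT libraries. At the Pcdh9 protocadherin site, in an LTR element, signal was 2.59 higher on the log2 scale in Ebf1-KO than in Pax5-KO. Pcdh9 RNA went the other way, at 3.3, 0.733 and 2.41 in Ebf1-KO libraries, 193, 214.5 and 216 in Pax5-KO libraries and 420.1, 441 and 444 in WT libraries. The site near Tnfsf11, the gene of the cytokine RANKL, was likewise 2.10 higher, while Tnfsf11 RNA was 45.9, 31.5 and 24.8 in Ebf1-KO libraries, 258, 226 and 193 in Pax5-KO libraries and 57.8, 59.2 and 57.1 in WT libraries.

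Among the 54 sites lower in Ebf1-KO than in Pax5-KO, the 4933417E11Rik site led with -3.23. The site near Gc, the vitamin D-binding protein gene, had 1.56, 2.42 and 0.96 in Ebf1-KO libraries, 19.8, 14.1 and 16.9 in Pax5-KO libraries and 43.8, 25.4 and 36.8 in WT libraries, a log2 fold change of -2.78. The Gm10637 site had 1.17, 0.61 and 1.92 in Ebf1-KO libraries, 15.2, 11.4 and 13.9 in Pax5-KO libraries and 50.3, 29.9 and 42.7 in WT libraries, a log2 fold change of -2.73 ± 0.28 (SE), adjusted p = 9.11e-13 (limma). At both, Pax5-KO libraries lay between the other genotypes without overlap, although the fall in Pax5-KO against WT lost its call under TMM scaling. The site near Tnfrsf8, the gene of the lymphocyte receptor CD30, differed by -2.70. At the Adra1b site, near an adrenergic receptor gene, signal was 2.34, 4.24 and 3.2 in Ebf1-KO libraries, 21.2, 15.1 and 14.8 in Pax5-KO libraries and 20.3, 11.97 and 11.1 in WT libraries, so Pax5-KO and WT libraries overlapped (log2 fold change 0.25, adjusted p = 0.468, limma) and Ebf1-KO libraries lay below both.

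Both mutants were set against the same WT libraries, so their calls share that group. With library totals, 1089 sites were lower in both, 253 lower in Pax5-KO and not called in Ebf1-KO, and 83 lower in Ebf1-KO and not called in Pax5-KO. There were 32 sites higher in both, 96 higher in Ebf1-KO alone, 10 higher in Pax5-KO alone and 516 called in neither. Over all tested sites of the 3 tables, 52.6% were lower in Ebf1-KO and 53.1% in Pax5-KO. Joint calls were not counted over those sites or under other scalings. Of the 1346 sites lower in Pax5-KO, 224 (16.6%) were higher and 35 (2.60%) lower in Ebf1-KO than in Pax5-KO. These shares were near the 15.7% and 2.59% among all tested intergenic PAX5-only sites. The 4 sites with opposite calls, named after their values were seen, lay near 1700030L20Rik, Adrbk2, Itpr2 and Kcnj6, and all 4 overlap a LINE or LTR repeat. The Kcnj6 potassium channel site had 14.8, 23.6 and 19.5 in Ebf1-KO libraries, 3.17, 3.18 and 1.3 in Pax5-KO libraries and 6.53, 2.85 and 7.25 in WT libraries. Its fall in Pax5-KO (-0.86) turned to 0.067 with quantile normalization, and its rise in Ebf1-KO was 1.69.

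Most sites near genes of B lineage transcription factors were lower in each mutant with library totals, as were most intergenic PAX5-only sites. Of 28 such sites, near 12 of 26 listed genes, 18 were lower in Ebf1-KO, 21 were lower in Pax5-KO and none was higher. Over all tested sites 52.6% were lower and 3.4% higher in Ebf1-KO, and 53.1% lower and 2.14% higher in Pax5-KO. Among the tested intergenic PAX5-only sites 56.3% were lower in Ebf1-KO and 64.6% in Pax5-KO. The medians were -1.47 in Ebf1-KO and -1.36 in Pax5-KO, against -0.82 and -0.77 over all tested sites. Over the tested intergenic PAX5-only sites the medians were -0.95 and -1.17. With TMM scaling 15 were lower and 3 higher in Ebf1-KO, and 12 lower and 2 higher in Pax5-KO, against 30.6% and 21.3%, and 21.8% and 14.7%, of all tested sites. RNA of the list fell for 17 of 25 tested genes in Ebf1-KO, for 16 in Pax5-KO, and rose for 5 in each, against 14.4% lower and 42.2% higher in Ebf1-KO and 11.6% lower and 36.4% higher in Pax5-KO over all 11696 tested genes. These are lists chosen with earlier results known, and their direction is not independent evidence.

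Of the 5 sites near Bcl11a, a zinc-finger factor needed for B cell development, 4 were lower in both mutants. The one of highest WT signal, 179184 bp from the start, had 5.84, 3.33 and 4.8 in Ebf1-KO libraries, 9.52, 8.48 and 13.5 in Pax5-KO libraries and 45.7, 24.2 and 33.2 in WT libraries. The 3 genotypes did not overlap, with log2 fold changes of -2.62 in Ebf1-KO and -1.60 in Pax5-KO. Bcl11a RNA was 371, 447 and 471 in Ebf1-KO libraries, 889.6, 863 and 973 in Pax5-KO libraries and 2171, 3192 and 3337 in WT libraries, in the same order. Near Foxo1, a forkhead factor that activates the recombinase genes, the site at 132120 bp had 1.56, 0.91 and 3.2 in Ebf1-KO libraries, 10.6, 5.3 and 6.52 in Pax5-KO libraries and 28.1, 15.1 and 15.02 in WT libraries. It fell by 2.84 in Ebf1-KO and fell by 1.26 in Pax5-KO. Foxo1 RNA was 34.1, 34.4 and 32.1 in Ebf1-KO libraries, 529.5, 669 and 777 in Pax5-KO libraries and 1581, 2583 and 2730 in WT libraries. Near Bach2, a repressor of plasma cell genes, all 3 sites fell in Pax5-KO, the strongest WT one having 6.23, 3.63 and 8.96 in Ebf1-KO libraries, 7.05, 8.22 and 5.21 in Pax5-KO libraries and 22.9, 17.1 and 26.9 in WT libraries. The site 55837 bp upstream of Lef1 fell by 2.34 in Ebf1-KO and fell by 1.91 in Pax5-KO. Lef1 RNA was 36.9, 24.2 and 24.3 in Ebf1-KO libraries, 207, 199 and 234 in Pax5-KO libraries and 1492, 1544 and 1633 in WT libraries.

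Irf4, a gene whose product acts in pre-B and plasma cells, had a site at 37044 bp with 16.4, 16.6 and 15.7 in Ebf1-KO libraries, 10.9, 6.1 and 5.65 in Pax5-KO libraries and 15.03, 15.1 and 16.6 in WT libraries. Ebf1-KO and WT libraries overlapped there and the log2 fold change was -1.003 in Pax5-KO and 0.06 in Ebf1-KO. Irf4 RNA was 87.5, 82.5 and 75.2 in Ebf1-KO libraries, 318, 396 and 406 in Pax5-KO libraries and 2443, 3326 and 3762 in WT libraries, so it was lowest in the genotype that kept the site. Pax5 itself had 1 such site, 18768 bp upstream and in an LTR element, with 1.17, 3.33 and 0.64 in Ebf1-KO libraries, 2.12, 3.18 and 1.74 in Pax5-KO libraries and 15.7, 9.12 and 6.47 in WT libraries. It fell by 2.12 in Ebf1-KO and 1.71 in Pax5-KO.

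Genes of the pre-B cell receptor and B cell surface had 15 sites, of which 12 were lower and 1 higher in Ebf1-KO, and 10 lower and none higher in Pax5-KO. Over all tested sites 52.6% and 53.1% were lower, and among the tested intergenic PAX5-only sites 56.3% and 64.6%. With TMM scaling 7 were lower and 1 higher in each, against 30.6% and 21.8% of all tested sites lower. The site 1084 bp upstream of Cd79a, which encodes a signalling chain of the receptor, had 1.56, 1.21 and 1.6 in Ebf1-KO libraries, 2.82, 1.86 and 1.74 in Pax5-KO libraries and 14.4, 14.2 and 12.7 in WT libraries. WT libraries lay above all mutant libraries there, with log2 fold changes of -2.59 in Ebf1-KO and -2.25 in Pax5-KO. The site near Igll1, the surrogate light chain gene, changed by -0.74 in Ebf1-KO and -0.81 in Pax5-KO with library totals, but by 0.13 and 0.10 with TMM scaling, so its direction was not fixed. At the site near Ptprc, the CD45 gene, signal was 18.7, 18.8 and 22.7 in Ebf1-KO libraries, 20.5, 10.6 and 15.2 in Pax5-KO libraries and 65.3, 38.2 and 56.5 in WT libraries, lower in both mutants, while Ptprc RNA was higher in both (5416, 5262 and 5496 in Ebf1-KO libraries, 4320, 4112 and 4346 in Pax5-KO libraries and 1281, 1468 and 1613 in WT libraries).

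Sites near adhesion and homing genes had the lowest medians of the lists, -2.11 in Ebf1-KO and -2.21 in Pax5-KO, with 8 of 9 tested sites lower in each, against 52.6% and 53.1% of all tested sites. Among all tested intergenic PAX5-only sites 56.3% and 64.6% were lower. Under TMM scaling 7 of the adhesion and homing sites were lower and 1 higher in each mutant. The site near Itga4, an integrin chain gene, had 1.95, 3.33 and 2.56 in Ebf1-KO libraries, 3.88, 1.59 and 3.48 in Pax5-KO libraries and 47.04, 21.1 and 38.3 in WT libraries, a log2 fold change of -3.28 in Ebf1-KO and -3.18 in Pax5-KO. Itga4 RNA was 4926, 6706 and 7671 in Ebf1-KO libraries, 2567, 3034 and 3115 in Pax5-KO libraries and 2766, 2260 and 2230 in WT libraries, higher in Ebf1-KO than in WT and not called in Pax5-KO. The site 19696 bp upstream of Cxcr4, a chemokine receptor gene, had 0.78, 2.72 and 2.24 in Ebf1-KO libraries, 1.41, 1.59 and 1.3 in Pax5-KO libraries and 14.4, 17.4 and 19.2 in WT libraries. S1pr1, a receptor for lymphocyte egress, had a site with 11.3, 16.3 and 14.1 in Ebf1-KO libraries, 12.7, 7.16 and 8.69 in Pax5-KO libraries and 51.6, 39.3 and 49.7 in WT libraries. The exception was the Ccr9 site, near the gene of a thymus-homing receptor, with 42.8, 36.6 and 46.4 in Ebf1-KO libraries, 28.6, 19.6 and 21.7 in Pax5-KO libraries and 32.7, 14.5 and 24.1 in WT libraries. It overlapped between Pax5-KO and WT (0.03, adjusted p = 0.941) and was higher in Ebf1-KO (0.86, adjusted p = 0.00455, limma), a call lost without WT replicate 2 (log2 0.56). Ccr9 RNA was 11640, 9772 and 10370 in Ebf1-KO libraries, 3611, 3709 and 4198 in Pax5-KO libraries and 21.03, 14.8 and 16.3 in WT libraries.

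From short lists, 4 of 21 T lineage, 2 of 16 natural killer and 1 of 16 myeloid genes were nearest to a site. Over all 24072 genes with RNA values, 1593 were nearest to a site. Of 6 sites near T lineage genes 4 fell in Ebf1-KO, 3 fell in Pax5-KO and none was higher with library totals, while over all tested sites 52.6% and 53.1% were lower and only 3.4% and 2.14% higher. With TMM scaling 2 were lower and 1 higher in Ebf1-KO, and 1 lower in Pax5-KO. Summed RNA of the 21 T lineage genes was 8991 to 10840 in Ebf1-KO, 6354 to 7409 in Pax5-KO and 885.3 to 1086 in WT libraries. The site 52517 bp from Cd28, the T cell costimulator gene, had 0.39, 1.21 and 0.96 in Ebf1-KO libraries, 0.35, 1.06 and 0.87 in Pax5-KO libraries and 18.3, 10.8 and 16.1 in WT libraries. It fell by 3.18 in Pax5-KO, whereas Cd28 RNA was 834, 1125 and 1347 in Ebf1-KO libraries, 1255, 1681 and 1702 in Pax5-KO libraries and 3.37, 10.6 and 11.6 in WT libraries. The site near Klrd1, which encodes the natural killer receptor chain CD94, had 2.34, 1.51 and 0.96 in Ebf1-KO libraries, 1.41, 0.8 and 0 in Pax5-KO libraries and 25.5, 11.7 and 15.5 in WT libraries and Klrd1 RNA was 148, 140 and 151 in Ebf1-KO libraries, 62.1, 58.6 and 74.1 in Pax5-KO libraries and 4.49, 5.64 and 6.34 in WT libraries. At both genes the mutants had less signal and more RNA than WT. Summed RNA of the 16 natural killer genes was 4307 to 4895 in Ebf1-KO, 1431 to 2512 in Pax5-KO and 17.95 to 26.33 in WT libraries. Summed RNA of the 16 myeloid genes was 2335 to 2670 in Ebf1-KO, 1835 to 2180 in Pax5-KO and 537 to 588 in WT libraries.

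Genes of cytokine signalling, survival and cycling had 15 sites, with 6 lower and 2 higher in Ebf1-KO, and 7 lower and 1 higher in Pax5-KO. These shares lower were below the 52.6% and 53.1% of all tested sites. With TMM scaling 2 were lower and 6 higher in Ebf1-KO, and 3 lower and 4 higher in Pax5-KO, so the balance between directions turned. The site at 37613 bp from Il7r, the interleukin-7 receptor gene, had 3.89, 0.91 and 3.52 in Ebf1-KO libraries, 2.47, 5.3 and 1.74 in Pax5-KO libraries and 15.03, 13.7 and 18.1 in WT libraries and fell by 2.25 in Ebf1-KO and 2.08 in Pax5-KO. The site 19880 bp from Pim1, a survival kinase gene, had 7.79, 6.66 and 6.4 in Ebf1-KO libraries, 6.7, 4.77 and 7.38 in Pax5-KO libraries and 1.96, 2.56 and 1.55 in WT libraries and rose in both. The stem cell and progenitor list had 6 sites, with 3 lower in Ebf1-KO, 4 lower in Pax5-KO and none higher, near the shares of all tested sites; with TMM scaling 1 was lower and 1 higher in Ebf1-KO, and 1 lower in Pax5-KO.

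Some genes had many sites around them: 1261 of the 1594 nearest genes had 1 site, and 6 was the highest number. With library totals, 56.3% of all tested intergenic PAX5-only sites were lower in Ebf1-KO and 64.6% in Pax5-KO. Over all tested sites these shares were 52.6% and 53.1%. All 6 sites near Bcar3, the gene of a p130Cas-binding adaptor, were lower in both mutants. The one 15715 bp upstream had 0.78, 0.61 and 0.64 in Ebf1-KO libraries, 1.06, 2.92 and 1.74 in Pax5-KO libraries and 63.4, 29.6 and 45.6 in WT libraries, and the one 13164 bp upstream 1.17, 2.12 and 2.24 in Ebf1-KO libraries, 1.06, 2.12 and 1.3 in Pax5-KO libraries and 64.02, 23.7 and 48.4 in WT libraries. The one 40905 bp upstream kept more signal in Pax5-KO, with 1.56, 2.42 and 2.56 in Ebf1-KO libraries, 12.7, 12.5 and 9.99 in Pax5-KO libraries and 37.2, 16.8 and 27.97 in WT libraries, and its fall in Pax5-KO lost the call under TMM scaling. Bcar3 RNA was 0.275, 0.366 and 0.517 in Ebf1-KO libraries, 2.28, 1.901 and 2.58 in Pax5-KO libraries and 320.5, 354 and 378 in WT libraries. Of 6 sites near Tgfbr2, a TGF-beta receptor gene, 3 were lower in Ebf1-KO and 5 in Pax5-KO. The largest of these falls in Pax5-KO was 41614 bp upstream, with 6.23, 7.56 and 11.5 in Ebf1-KO libraries, 2.47, 6.36 and 3.91 in Pax5-KO libraries and 47.7, 30.5 and 41.4 in WT libraries. At Fut8, a fucosyltransferase gene, 4 of 6 sites were lower in each mutant, near the shares of all tested intergenic PAX5-only sites. Fut8 RNA was 1889, 1806 and 2072 in Ebf1-KO libraries, 1222, 1166 and 1304 in Pax5-KO libraries and 196, 217 and 224 in WT libraries, higher in both mutants.

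The immunoglobulin loci, which the nearest-gene labels hide, held 31 of the sites by the GENCODE vM21 annotation of GRCm38. In the heavy-chain locus, chr12:113254830-116010093, 18 sites were found, 13 of them among the V genes. In the whole locus 11 sites passed the filter, of which 6 were lower in Ebf1-KO, 7 were lower in Pax5-KO and none was higher, near the 56.3% and 64.6% lower among all tested intergenic PAX5-only sites. The other 7 of the 18 were too low to test. The strongest bound, with a ChIP score of 580.2, lies at chr12:113321138-113321386 outside the V genes and had 14.02, 17.2 and 19.5 in Ebf1-KO libraries, 4.23, 2.92 and 3.04 in Pax5-KO libraries and 28.1, 24.8 and 29 in WT libraries. Pax5-KO libraries lay far below both other genotypes, with a log2 fold change of -2.70 in Pax5-KO and -0.67 in Ebf1-KO. Among the V genes the site of highest WT signal, chr12:115023655-115023903, had 7.01, 8.17 and 11.8 in Ebf1-KO libraries, 12.7, 7.42 and 4.34 in Pax5-KO libraries and 11.1, 9.97 and 12.4 in WT libraries, with overlap. In the kappa locus all 9 sites lay among V genes, 8 of them in LINE repeats, and 6 could be tested. Of these 6, 4 were lower in Ebf1-KO and 6 in Pax5-KO with library totals. Most tags at the 6 sites came from WT libraries, so the filter itself favoured sites lower in the mutants. These counts therefore only describe the sites that passed. The kappa site with most WT signal had 1.56, 2.72 and 3.2 in Ebf1-KO libraries, 2.12, 1.33 and 1.3 in Pax5-KO libraries and 16.3, 7.41 and 9.58 in WT libraries. Reads over these gene segments were not analysed here.

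Of the 5 sites of highest mean signal, none was called lower in Ebf1-KO and 3 were called lower in Pax5-KO with library totals. Among all tested intergenic PAX5-only sites the shares lower were 56.3% and 64.6%. The mean was taken over all 9 libraries, which favours sites that kept signal in the mutants. These counts therefore only describe the 5 sites. The Kctd3 site had 68.5, 62.9 and 81.95 in Ebf1-KO libraries, 65.3, 36.6 and 33.5 in Pax5-KO libraries and 79.7, 48.2 and 77.2 in WT libraries and was called in no comparison. The Cxcl5 site had 56.9, 71.7 and 74.9 in Ebf1-KO libraries, 53.3, 34.7 and 25.2 in Pax5-KO libraries and 65.98, 39.03 and 68.9 in WT libraries, with no call against WT in either mutant. An unnamed LTR site on chromosome 1, the strongest of all, had 79.4, 80.8 and 104 in Ebf1-KO libraries, 67.7, 44.8 and 34.3 in Pax5-KO libraries and 106, 51.3 and 91.2 in WT libraries. Its fall in Pax5-KO (-0.74) turned to 0.20 under TMM scaling. The Pisd-ps1 site had 63.5, 75.9 and 79.1 in Ebf1-KO libraries, 61.7, 38.7 and 30.4 in Pax5-KO libraries and 133, 60.4 and 108 in WT libraries, lower in Pax5-KO by library totals (-1.18, adjusted p = 0.000514, limma) and not called under TMM scaling, edgeR or DESeq2. The 4930459C07Rik site had 54.5, 67.5 and 69.5 in Ebf1-KO libraries, 39.2, 24.4 and 19.1 in Pax5-KO libraries and 71.2, 39.03 and 53.9 in WT libraries, with a log2 fold change of -0.98 in Pax5-KO that lost its call under TMM scaling and turned to 0.0034 with edgeR. WT replicate 2 was the lowest WT library at these 5 sites.

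Strongly bound and remote sites were lower more often. In 4 classes of about equal size by the ChIP peak score, weakest first, 56.3%, 58.3%, 66.6% and 76.7% of tested sites were lower in Pax5-KO, and 47.9%, 50.96%, 59.01% and 66.6% in Ebf1-KO. With TMM scaling the Pax5-KO shares were 27.6%, 29.8%, 38% and 47.5%. The median WT signal was 6.003, 6.63, 7.90 and 10.003 in the same classes, so a stronger peak was also a more open site, and its part in the order of shares was not tested. By distance, 55.7% of tested sites between 1 and 5 kb from a start and 73.7% of those over 100 kb were lower in Pax5-KO. Counted over all sites, tested or not, these shares were 54.0% and 67.5%, and under TMM scaling 26.8% and 49.9% of tested sites.

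**Figure D4:**
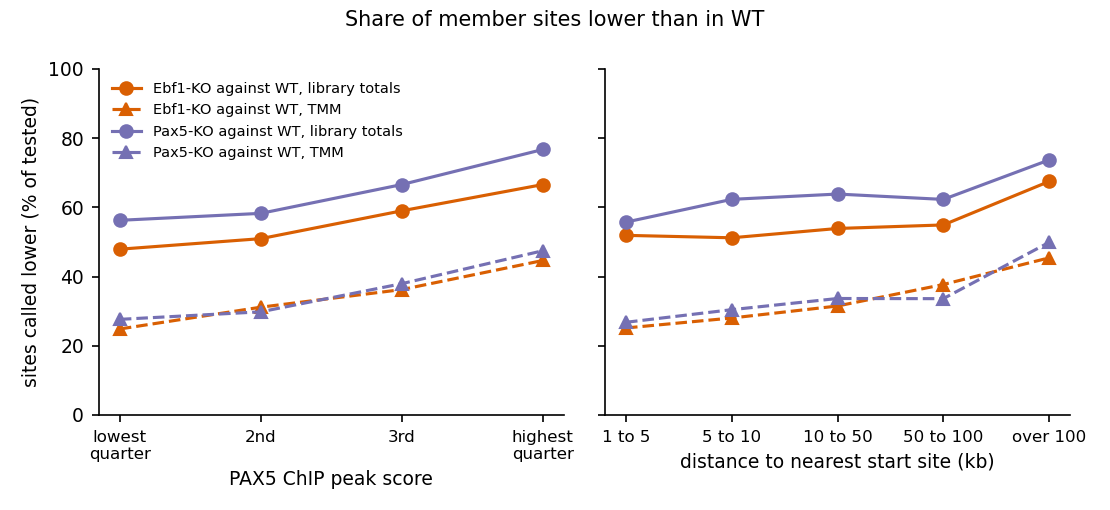
Percent of tested sites called lower in Ebf1-KO and Pax5-KO against WT by class of the ChIP peak score and by distance to the nearest start, with library totals (solid lines, circles) and TMM scaling (dashed lines, triangles). In Pax5-KO the share was 56.3% in the weakest and 76.7% in the strongest class, and TMM scaling lowered every point.

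By the repeat class in the deposited annotation, 224 sites lay in LINE, 249 in LTR and 112 in SINE elements, and 1576 in none. Of the LINE sites 203 were L1, and their median signal was 0.833 in Ebf1-KO libraries, 0.847 in Pax5-KO libraries and 4.15 in WT, below that of all the sites. Of the 171 LINE sites tested 139 (81.3%) were lower in Pax5-KO, against 62.6% of sites outside repeats. The filter removed 53 LINE sites, however, and over all 224 the share was 62.1%, against 60.5% outside repeats. The wider PAX5 core GCNTGAC was in 42.4% of LINE sites and 18.8% of sites outside repeats. Its middle base was T in 75 of 95 LINE matches (78.9%) and in 52 of 330 matches outside repeats (15.8%). Reads in repeated sequence can be placed at several copies, and no source used here says how the authors treated them.

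The letters of the sites were read against their label. The strict PAX5 core GCGTGAC occurred in 4.71% of the sites, 3.03% of all bound sites, 0.439% of EBF1-only intergenic sites and 0.521% of windows of the same length shifted by 1000 bases. Of its 107 matches 85 (79.4%) lay within 25 bases of the site centre, where an even spread would put 20.99%. The wider core GCNTGAC occurred in 21.4% of the sites, against 13.7% of all bound sites and 6.19% of shifted windows. The EBF1 core CCCNNGGG occurred in 7.80% of the sites and 59.0% of EBF1-only intergenic sites, with 5.89% in shifted windows. The RUNX motif TGTGGTT was found in 19.5%, 13.6% and 6.82% of the sites, all bound sites and shifted windows, and the ETS motif AGGAAGT in 21.4%, 17.2% and 6.69%. Of the RUNX matches 39.8% were central and of the ETS matches 33.8%.

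Shares of the other 8 motifs were as follows. The E-box CAGCTG was in 23.0% of the sites and 22.3% of all bound sites, the ETS-IRF composite GAANNGAAA in 12% and 9.20%, the AP-1 motif TGANTCA in 9.70% and 8.11%, and the CTCF core CTAGNGG in 9.70% and 11.8%. The octamer ATGCAAAT was in 3.22% and 2.92%, the GATA motif AGATAAG in 2.72% and 2.44%, the TCF-LEF motif ATCAAAG in 5.21% and 3.97%, and the C/EBP motif TTGCNNAA in 9.34% and 9.59%. A motif without a match says only that these letters are not in the window.

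Sites that gained signal held RUNX letters more often than sites that lost it. In Ebf1-KO against WT, TGTGGTT was in 60 of 132 higher sites (45.5%, exact 95% interval 36.8 to 54.4), in 180 of 1172 lower sites (15.4%, 13.3 to 17.6) and in 23.2% of sites not called. In Pax5-KO against WT it was in 16 of 42 higher sites (38.1%, 23.6 to 54.4) and 248 of 1346 lower sites (18.4%, 16.4 to 20.6). In Ebf1-KO against Pax5-KO it was in 127 of 327 higher sites (38.8%, 33.5 to 44.4) and 9 of 54 lower sites (16.7%). With TMM scaling the shares among higher sites were 37.9%, 37.5% and 39.0% in these 3 comparisons, and with quantile normalization 31.7%, 36.7% and 32.1%. The intervals cover counting error only. The EBF1 core was in 11 of the 54 sites lower in Ebf1-KO than in Pax5-KO (20.4%, 10.6 to 33.5) and in 14 of the 327 higher ones (4.28%). The PAX5 core was in 3.42% of sites lower in Pax5-KO, 6.33% of sites not called and 5 of the 42 higher sites (11.9%), the Cdh26 and Gpr12 sites printed above among them. The last share rests on only 5 sites, and its difference from the others was not tested.

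**Figure D5:**
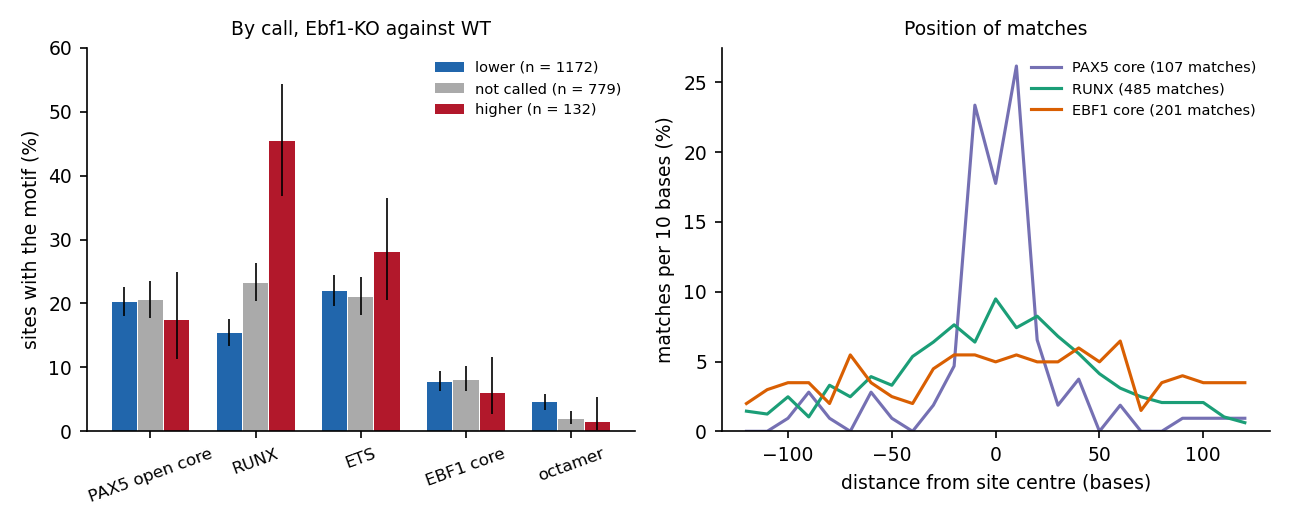
Left, percent of sites that hold each motif among sites lower, not called and higher in Ebf1-KO against WT (1172, 779 and 132 sites), with exact 95% intervals, where RUNX letters were in 15.4%, 23.2% and 45.5%. Right, matches per 10 bases by distance from the site centre for the PAX5 core (107 matches), RUNX (485) and the EBF1 core (201), with the PAX5 core concentrated at the centre.

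RNA of the nearest genes followed the sites only in part. Of 1594 names 1593 matched the RNA table and 976 genes passed the expression filter, of which 344 were higher and 209 lower in Pax5-KO (limma), 35.3% and 21.4%. Over all 11696 tested genes 36.4% were higher and 11.6% lower. Among 644 tested genes with a lower site and no higher one, 204 (31.7%) were higher and 168 (26.1%) lower in Pax5-KO, and among 310 genes with no called site 130 (41.9%) and 38 (12.3%). TMM scaling of the RNA moved the median of all genes to 0.02, against 0.29 with library totals. The site calls stayed those of library totals, and genes with a lower site were then higher in 25% and lower in 42.4%. Over all genes these shares were 27% and 24.8%. The authors' deposited table lists PAX5 peaks near genes that were higher in WT: 175 of the sites were in it, and 137 of the 172 tested (79.7%) were lower in Pax5-KO. Of the 169 sites in the authors' deposited table for genes lower in WT, 86 of 163 tested (52.8%) were lower in Pax5-KO. Among all tested intergenic PAX5-only sites 64.6% were lower in Pax5-KO, and among all tested sites 53.1%. These site shares rest on library totals.

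In Ebf1-KO against WT, 386 of the 976 genes were higher and 249 lower, against 42.2% and 14.4% of all genes. Among 556 genes with a lower site and no higher one, 186 (33.5%) were higher and 173 (31.1%) lower. With TMM scaling of the RNA alone these shares were 27.5% and 47.1%, against 30.5% and 28.9% of all genes. In Ebf1-KO against Pax5-KO, 226 were higher and 211 lower, against 17.1% and 13.4% of all genes. Of 30 tested genes with a site lower in Ebf1-KO than in Pax5-KO 17 (56.7%) had lower RNA and 2 higher RNA. Of 173 genes with a higher site 52 (30.1%) had higher RNA and 30 (17.3%) lower RNA. The nearest gene is a label by distance, and whether a site acts on it was not tested.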

How the data were processed

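ATAC-seq and RNA-seq libraries of 3 genotypes, 3 per genotype and assay, were grouped by the genotype in the labels. Reads were handled by the authors with Bowtie2, TopHat, HOMER, edgeR and DESeq2 on mm10 (GRCm38), per the submitters' processing notes; no versions are in the sources used here. The ATAC signal deposited by the authors is the number of tags within each site, scaled to 10 M tags per library, and the RNA signal is reads over exons scaled to 10 M mapped reads, per the file headers. RNA values are not per length and were not compared between genes. The score is that of the ChIP peak, deposited by the authors from combined published PAX5 data, and the distance to the nearest start was deposited beside it, per the file headers. Every per-library column was mapped to a sample.

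All 14377 sites of the 3 tables were fitted together with limma 3.58.1 (R 4.3.3) on log2(signal + 1), so that low sites have understated fold changes, with the 9 libraries in 1 model and no replicate block. Sites under 10 tags per 10 M in all, and genes under a mean of 10 in every genotype, were left out. Calls are at a Benjamini-Hochberg adjusted p under 0.05 over all sites or genes tested. Whole tags were recovered from the scaled ATAC values, and whole reads from the RNA values, within 0.1, and used for edgeR 4.0.16 and DESeq2 1.42.0 as alternatives. The limma fit with library totals was tested on simulated data with balanced rises and falls in Pax5-KO. That simulation held no overall shift, so it could not test the choice of scaling. Results on some items are not reported here. Sites were read from the RefSeq GRCm38 sequence with pysam 0.24.0, and 5 of the bound sites could not be scanned. Intervals on shares are exact binomial and cover counting error only.

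Same-numbered RNA libraries deviated together (r 0.106 to 0.473 in all 9 pairs), so the numbers were taken to pair them. The RNA calls in the Results nevertheless come from the fit without a block, and counts with the block are given below. The sites named were, in each comparison, the 6 largest falls and 6 largest rises among called sites with a mean of at least 10 in the higher group and no overlap, up to 4 per gene list, the 5 of highest mean signal and the 5 genes with most sites. Immunoglobulin-locus sites were described after their values were seen, as was every further site of a listed gene. The members and lists were chosen with earlier results of these data known. Nothing states that the libraries of 1 genotype came from separate cultures or fetuses.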

Additional observations from a re-analysis of the deposited data

How the results depend on the processing

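Counts of called sites moved with the scaling, the filter and the tool. In Pax5-KO against WT, the median log2 fold change was -0.67 with pseudocount 5, -1.39 for sites with at least 50 tags, -0.42 with TMM, -0.27 with quantile normalization, -0.52 with edgeR and -0.53 with DESeq2. Sites lower were 708, 747, 681, 770 and 627 with at least 50 tags, TMM, quantile, edgeR and DESeq2; sites higher were 200, 289, 216 and 152 with the last 4, and all calls 746 with at least 50 tags and 779 with DESeq2. In Ebf1-KO against WT, the median was -0.52 with pseudocount 5, -0.23 with TMM, 0.11 with quantile normalization, which is reversed, -0.32 with edgeR and -0.25 with DESeq2. Sites lower were 532, 716, 507, 729 and 585 in the order above, sites higher 417, 543, 439 and 402, and all calls 643 with at least 50 tags. In Ebf1-KO against Pax5-KO, sites lower were 35 with pseudocount 5 and 84 with TMM, and the median was 0.073 with pseudocount 5, 0.43 with at least 50 tags, 0.33 with quantile normalization and 0.28 with DESeq2. Nearest genes with lower RNA were 363, 365 and 372 in Pax5-KO and 398, 395 and 391 in Ebf1-KO with TMM, edgeR and DESeq2. The cause of these differences was not tested.

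Leaving out 1 library at a time gave 1268 to 1439 ATAC calls in Pax5-KO against WT (35 to 43 higher, 1225 to 1397 lower, median -1.29 to -1.06), 1182 to 1319 in Ebf1-KO against WT (101 to 145, 1048 to 1199, -1.06 to -0.881) and 251 to 430 in Ebf1-KO against Pax5-KO (203 to 367, 38 to 63, 0.158 to 0.205). RNA calls of nearest genes were 480 to 567 (276 to 373 higher, 183 to 227 lower), 577 to 660 (337 to 404, 224 to 256) and 383 to 467 (191 to 257, 181 to 221) in the same order.

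With the replicate block, 42 sites were higher and 1350 lower in Pax5-KO against WT, 128 and 1174 in Ebf1-KO against WT, and 330 and 58 in Ebf1-KO against Pax5-KO. For RNA of nearest genes, 417 were higher and 263 lower in Pax5-KO against WT, 458 and 280 in Ebf1-KO against WT, and 311 and 275 in Ebf1-KO against Pax5-KO, each within 1.5 times of the unblocked count, and no named RNA call changed. Over all tested genes, the block gave 50.32% higher and 15.15% lower in Pax5-KO against WT, where the fit without it gave 36.42% and 11.61%. In Ebf1-KO against WT it gave 53.15% and 17.36%, where the fit without it gave 42.18% and 14.42%. ATAC numbers did not pair the libraries (r -0.0523 to 0.112). The block took the Pisd-ps1 difference between Ebf1-KO and Pax5-KO to an adjusted p of 0.0623 (limma).

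Of 2353 named-site values under alternatives 2191 kept direction and side of the threshold, 131 lost the call and 31 reversed. Listed for TMM, quantile, edgeR and DESeq2 where reversed, in Pax5-KO against WT these were Igll1 at 0.10, 0.19, 0.11 and 0.10, Lmo2 at 0.065, 0.24, 0.019 and 0.032, the unnamed site on chromosome 1 at 0.20, 0.14, 0.23 and 0.21, Kcnj6 at 0.067 with quantile and 4930459C07Rik at 0.0034 with edgeR. In Ebf1-KO against WT they were Jak1 at 0.15, 0.16, 0.11 and 0.19, and, for TMM, edgeR and DESeq2, Igll1 at 0.13, 0.16 and 0.22, Igf2bp3 at 0.13, 0.16 and 0.21, Zeb2 at 0.13, 0.14 and 0.20, Cd47 at 0.17, 0.16 and 0.20, with Socs2 at 0.0049 with DESeq2. Of 1125 RNA values 1094 kept both and none reversed. WT replicate 1 was the shallowest ATAC library, at 15.3 M tags.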

Other observations

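Bases around the strict PAX5 core were uneven. Over 109 matches in windows that reach 10 bases past each edge of the sites, the base just before GCGTGAC was A in 46.8% and the base before that A in 40.4%, while C stood 4 bases before it in 46.8% and 7 bases before it in 48.6%. The share of sites with the octamer ATGCAAAT was 53 of 1172 (4.52%) among sites lower in Ebf1-KO than in WT and 1.93% among sites not called. The ETS motif AGGAAGT was in 17 of the 42 sites higher in Pax5-KO (40.5%) and in 22.4% of those lower. These octamer and ETS shares were taken from 13 motifs read in 3 comparisons. Their calls rest on library totals, and the differences were not tested. Of 15 tested sites on the X chromosome 11 were lower in Ebf1-KO and 12 in Pax5-KO, against 56.1% and 64.5% of tested autosomal sites. A part of sex in this was not tested.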
